A study of Mus musculus with 24 samples.

Results

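The lysosomal proteases, proton pump subunits and Lamp membrane glycoproteins of mouse liver were taken as all protein-coding genes whose symbol is Cts followed by 1 letter, begins with Atp6v, or is Lamp followed by a digit. The rule found 38 genes among 17879 protein-coding genes and 24137 genes in all: 15 cathepsins, 20 proton pump subunits and 3 Lamp genes. Read counts came from whole-liver RNA of 24 adult mice, 1 library per mouse. The HF/TZD-KO group (5 mice) received a high-fat HFCF diet for 34 weeks, carried a hepatocyte-specific PPARγ knockout induced after 24 weeks, and had rosiglitazone maleate in the diet for the last 8 weeks. The HF/TZD-C group (5 control mice) received the same diet and drug without the knockout. The HF-KO group (5 mice) had the diet and 10 weeks of knockout, and the HF-C group (5 control mice) had the diet alone; mice of all 4 HFCF groups were labelled as having steatohepatitis. The LF-C group (4 control mice, labelled healthy) received a low-fat LFCF diet. Rosiglitazone is a thiazolidinedione agonist of PPARγ; how the knockout was induced, which alleles the control mice carried and the age and sex of the mice were not given in the sources used here.

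Lysosomes degrade proteins and other macromolecules in an acidic lumen. The vacuolar proton pump, made of a cytosolic V1 sector that splits ATP and a membrane V0 sector that carries protons, keeps the lumen acidic, cathepsins cleave proteins there, and the heavily glycosylated Lamp proteins line the membrane. Transcription factors of the TFEB family bind E-box elements near the start of many lysosomal genes. In liver, hepatocytes carry most of the lysosomal mass, whereas macrophages, lymphocytes and other cells use particular cathepsins and pump subunits.

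The libraries held 19502150 to 28742638 counted reads, and the members took 0.448% to 0.635% of them. Levels are given as CPM, read counts scaled to the size of each library, after TMM scaling of all libraries together. Pparg, the targeted gene, had 31.6 to 62.1 CPM in HF/TZD-KO livers against 24.5 to 30.6 CPM in HF/TZD-C livers, and 57.5 to 70.3 CPM in HF-KO livers against 28.2 to 35.3 CPM in HF-C livers. The counts of the whole gene were therefore higher in the libraries labelled knockout; reads over a deleted exon cannot be separated in a gene total, so KO below means the label. HF/TZD-KO 5 stood apart on the first principal component of all expressed genes, which held 51.0% of the variance: it lay at -41.99, against -6.31 to 8.02 for the other HF/TZD-KO livers and -69.53 to -40.23 for the LF-C livers. Where leaving it out changed whether a member passed a test, this is stated. Counts of markers include it. The 8 hepatocyte markers, which check the tissue label, summed to between 37650 and 111400 CPM in every library and none was at 0 in any group.

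Levels of different genes were compared per kilobase of the deposited gene length. Lamp1 was the member with the highest level in 4 of the 5 groups, at 330 CPM per kb in HF/TZD-KO, 384 in HF/TZD-C, 384 in HF-KO, 398 in HF-C and 377 in LF-C livers, and Ctsl was above it in HF/TZD-KO livers at 353 CPM per kb. Ctsl, Ctsd, Ctsb, Ctsz and Lamp2 followed, each between 156.5 and 364 CPM per kb. Ctsb, Ctsd and Ctsl together held 64.8% ± 1.05 of the summed cathepsin level in HF/TZD-KO, 60.5% ± 0.50 in HF/TZD-C, 63.6% ± 1.05 in HF-KO, 61.2% ± 1.81 in HF-C and 60.2% ± 1.01 in LF-C livers (SD, n = 5, 5, 5, 5 and 4). Ctsk, Atp6v0d2, Ctse, Ctsw, Atp6v0e2 and Atp6v1g2 lay between 0.42 and 6.07 CPM per kb in every group. The plot of levels per length shows a step between these 6 low members and the other 26 tested members, none of which fell below 11.7 CPM per kb in a group.

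**Figure D1:**
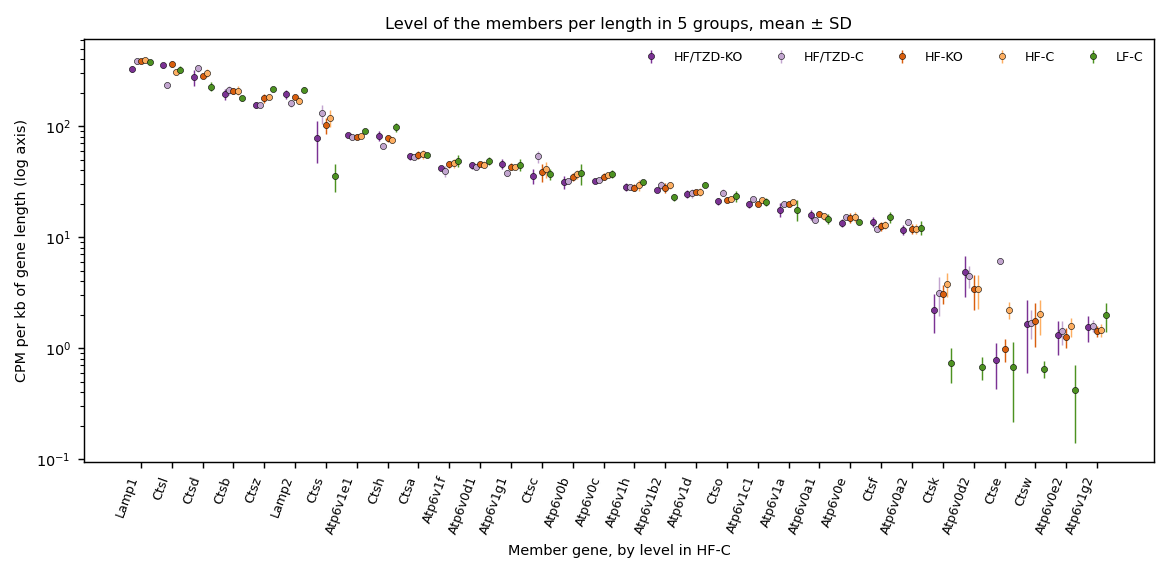
Level of the 32 tested members in CPM per kb of gene length (vertical log axis), ordered by their level in HF-C; points are group means and bars the SD over 5 livers (4 in LF-C). The 6 members on the right lie below the 26 on the left, and among all of them Ctss, Ctsk, Atp6v0d2 and Ctse spread widely between groups.

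With TMM scaling, the widely expressed pump subunits kept a narrow range. The 14 of them (8 of V1 and 6 of V0) summed to 437 ± 12.1 CPM per kb in HF/TZD-KO, 433 ± 13.4 in HF/TZD-C, 450 ± 13.3 in HF-KO, 459 ± 21.4 in HF-C and 472 ± 20.8 in LF-C livers (SD). Atp6v1a, the catalytic A subunit of V1, had 82.5, 60.9, 80.5, 85.2 and 66.9 CPM in HF/TZD-KO livers, 78.7, 92.2, 81.4, 84.2 and 84.3 CPM in HF/TZD-C livers, 79.8, 86.6, 86.7, 80.0 and 86.9 CPM in HF-KO livers, 90.5, 87.6, 80.6, 84.6 and 92.1 CPM in HF-C livers, and 78.0, 89.8, 80.9 and 51.8 CPM in LF-C livers. The groups overlapped, with LF-C 4 lowest. Atp6v0d1, the widely expressed d subunit that joins the V0 ring to the V1 stalk, had 73.9, 64.1, 72.2, 77.7 and 75.1 CPM in HF/TZD-KO livers, 66.5, 67.9, 72.1, 71.6 and 69.0 CPM in HF/TZD-C livers, 71.2, 74.4, 71.1, 78.8 and 77.8 CPM in HF-KO livers, 67.9, 81.6, 69.8, 74.4 and 74.4 CPM in HF-C livers, and 80.4, 74.6, 75.9 and 88.6 CPM in LF-C livers. Most of these groups overlapped, but every HF/TZD-C liver was below every LF-C liver. With TMM scaling neither gene passed the edgeR test in any comparison. Their log2 fold changes lay between -0.16 and 0.20 for Atp6v1a and between -0.13 and 0.06 for Atp6v0d1. Scaling by library totals alone called Atp6v1a higher in HF-C than in LF-C livers (0.45, adjusted p = 0.0332). It also called Atp6v1a lower in HF/TZD-KO than in HF/TZD-C livers (-0.33, adjusted p = 0.0404). The heat map by library, drawn with TMM scaling, shows evenness over both sectors. Rows that contrast with it are Ctse, Ctss, Ctsk, Ctsw, Atp6v0d2 and Atp6v0e2.

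**Figure D2:**
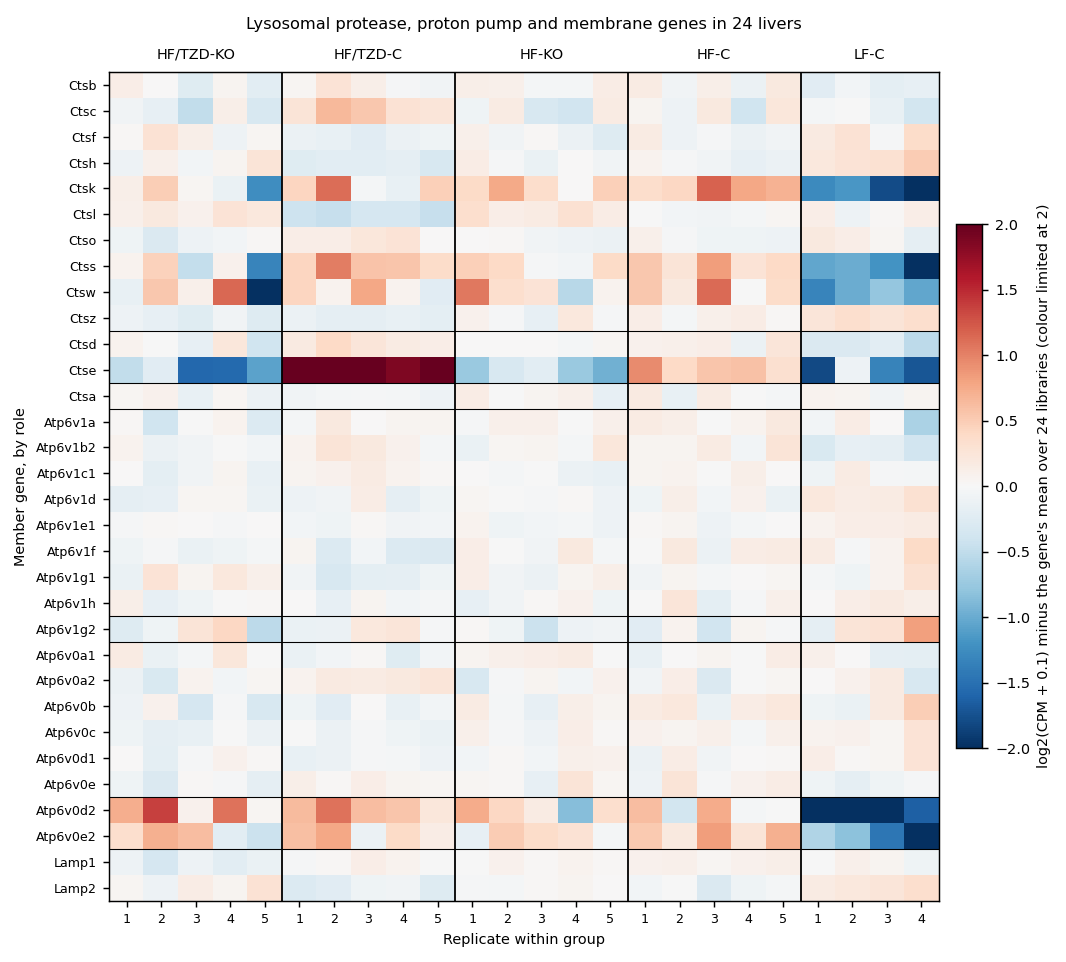
The 32 tested members (rows, grouped by role from cysteine cathepsins at the top to Lamp genes at the bottom) in 24 livers (columns, by group). Colour is log2(CPM + 0.1) minus the gene's mean over all libraries, limited at 2 in either direction; Ctse is high in HF/TZD-C (11.7 to 13.8 CPM), and Ctss, Ctsk, Ctsw, Atp6v0d2 and Atp6v0e2 are low in LF-C.

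Promoter sequences are shown for Lamp1, Ctsd and Atp6v1a as examples of members with an E-box of the TFEB family, and for Ctss and Ctsk, described below, as examples without one. They were chosen with the match known, and members such as Lamp2, Ctsz, Atp6v1e1 and Atp6v0c also had no E-box in their windows. They are the 250 bases before the RefSeq start site, 5′ to 3′ on the strand of the gene, from RefSeq on GRCm38.p6, with each E-box (CACGTG) in capitals. Lamp1 lies at chr8:13158911-13159160 on the plus strand, Ctsd at chr7:142387828-142388077 on the minus strand, Atp6v1a at chr16:44139260-44139509 on the minus strand, Ctss at chr3:95526536-95526785 on the plus strand and Ctsk at chr3:95498960-95499209 on the plus strand.
Lamp1: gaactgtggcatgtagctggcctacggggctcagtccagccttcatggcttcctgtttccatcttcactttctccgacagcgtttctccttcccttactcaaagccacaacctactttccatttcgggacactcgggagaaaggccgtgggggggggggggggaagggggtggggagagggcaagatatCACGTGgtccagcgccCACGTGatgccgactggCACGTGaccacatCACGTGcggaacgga
Ctsd: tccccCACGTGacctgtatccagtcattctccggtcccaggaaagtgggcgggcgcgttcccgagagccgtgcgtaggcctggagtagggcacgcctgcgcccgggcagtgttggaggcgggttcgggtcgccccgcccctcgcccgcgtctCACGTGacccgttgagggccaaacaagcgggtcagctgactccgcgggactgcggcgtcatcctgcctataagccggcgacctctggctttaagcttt
Atp6v1a: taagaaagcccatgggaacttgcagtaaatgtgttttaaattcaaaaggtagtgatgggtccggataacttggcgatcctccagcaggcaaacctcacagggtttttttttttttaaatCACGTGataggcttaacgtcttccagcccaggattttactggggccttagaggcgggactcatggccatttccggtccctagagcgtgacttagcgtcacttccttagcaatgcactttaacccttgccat
Ctss: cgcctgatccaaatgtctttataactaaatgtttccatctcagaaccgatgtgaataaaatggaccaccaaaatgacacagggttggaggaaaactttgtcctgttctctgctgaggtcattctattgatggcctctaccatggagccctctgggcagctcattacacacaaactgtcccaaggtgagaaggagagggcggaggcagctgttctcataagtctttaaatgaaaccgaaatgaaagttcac
Ctsk: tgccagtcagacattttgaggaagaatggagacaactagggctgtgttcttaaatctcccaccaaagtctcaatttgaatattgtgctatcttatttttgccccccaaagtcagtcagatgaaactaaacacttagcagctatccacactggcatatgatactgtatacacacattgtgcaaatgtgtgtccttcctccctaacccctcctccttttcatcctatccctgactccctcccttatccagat

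The printed stretch of Lamp1 held 4 E-boxes, that of Ctsd 2 and that of Atp6v1a 1, and none was found in those of Ctss and Ctsk. Of the 38 members, 28 had an entry in the RefSeq table of 300-base windows (250 bases before and 50 after a start site). CACGTG, which reads the same on both strands, was in a window of 9 of these 28 members (32.1%): Atp6v0b, Atp6v0d1, Atp6v0e, Atp6v1a, Ctsa, Ctsd, Ctsf, Ctsl and Lamp1. It was in 8.09% of all 27025 genes with a window and in 7.15% of all 32851 windows. This background had no filter on gene type, whereas all members are protein-coding. The longer core GTCACGTG, which contains CACGTG and was searched on both strands, was in windows of 5 members (17.9%), against 2.55% of all genes. The 28 members had 32 windows, and a gene counted if any of its windows matched. These are matches of letters and do not show binding. Atp6v0a2, Atp6v0d2, Atp6v1b2, Atp6v1c1, Atp6v1g1, Atp6v1h, Ctsb, Ctse, Ctsh and Ctsw had no entry.

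Each comparison was tested with edgeR's quasi-likelihood test over all genes that passed a filter on low counts, and a member is said to pass at a Benjamini-Hochberg adjusted p below 0.05 over all genes tested. The filter kept 32 of the 38 members in every comparison. Comparisons that have a group in common share its libraries, so their values are set side by side and not counted as separate evidence. Fold changes are log2, with the standard error (SE), and the first group named is over the second.

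The effect of 34 weeks of HFCF diet was assessed in control mice by comparing HF-C with LF-C. Of the 32 tested members, 8 were higher in HF-C livers and 4 were lower. Over all 14772 genes tested, 21.4% were higher and 19.2% lower. The median log2 fold change was -0.01 over the members and -0.03 over all genes. The higher members were Ctss, Ctsk, Ctsw, Ctse and Ctsd among the cathepsins and Atp6v0d2, Atp6v0e2 and Atp6v1b2 among the pump subunits; the lower members were Ctsh, Ctsz, Lamp2 and Atp6v1d. Scaling by library totals alone moved the median of all genes to 0.24 and that of the members to 0.26; with it 16 members were higher and 0 lower, and 5309 genes were higher and 886 lower, against 3168 and 2835 with TMM scaling.

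Ctss, the cathepsin that trims the invariant chain of MHC class II in antigen-presenting cells, lies on chromosome 3 at 95526786 to 95556403 (GRCm38). It had 169, 139, 208, 142 and 154 CPM in HF-C livers, against 56.7, 58.4, 51.0 and 28.5 CPM in LF-C livers. Every HF-C liver was above every LF-C liver, and the log2 fold change was 1.72 ± 0.20 (SE; adjusted p = 5.82e-05). Per length, Ctss made up 8.92% ± 1.22 of the summed cathepsin level in HF-C livers and 2.96% ± 0.82 in LF-C livers (SD, n = 5 and 4). Ctsk, the collagen-degrading protease of osteoclasts, lies on the same chromosome at 95499286 to 95509362. Its levels were 4.39, 4.57, 7.84, 5.93 and 5.57 CPM in HF-C livers, against 1.36, 1.46, 0.922 and 0.644 CPM in LF-C livers. These groups did not overlap either, and the log2 fold change was 2.35 ± 0.28 (adjusted p = 6.55e-05).

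Ctsw, a protease of cytotoxic T and NK cells, had 2.55, 2.00, 3.92, 1.72 and 2.26 CPM in HF-C livers, against 0.629, 0.817, 0.966 and 0.793 CPM in LF-C livers. The groups did not overlap and the log2 fold change was 1.62 ± 0.30 (adjusted p = 0.00123). Atp6v0d2, the form of the d subunit known from osteoclasts and macrophages, lies on chromosome 4 at 19876841 to 19922605. It had 11.2, 5.61, 12.2, 7.07 and 7.19 CPM in HF-C livers, against 1.55, 1.38, 1.67 and 2.28 CPM in LF-C livers. Again the groups did not overlap, and its log2 fold change was 2.32 ± 0.27 (adjusted p = 6.02e-05). Its share of the d subunit, per length, was 7.09% ± 2.59 in HF-C livers and 1.35% ± 0.21 in LF-C livers (SD). Atp6v0e2, the second form of the small e subunit, averaged 2.88 ± 0.58 CPM in HF-C livers and 0.77 ± 0.51 CPM in LF-C livers (log2 fold change 1.87 ± 0.43, adjusted p = 0.0048).

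**Figure D3:**
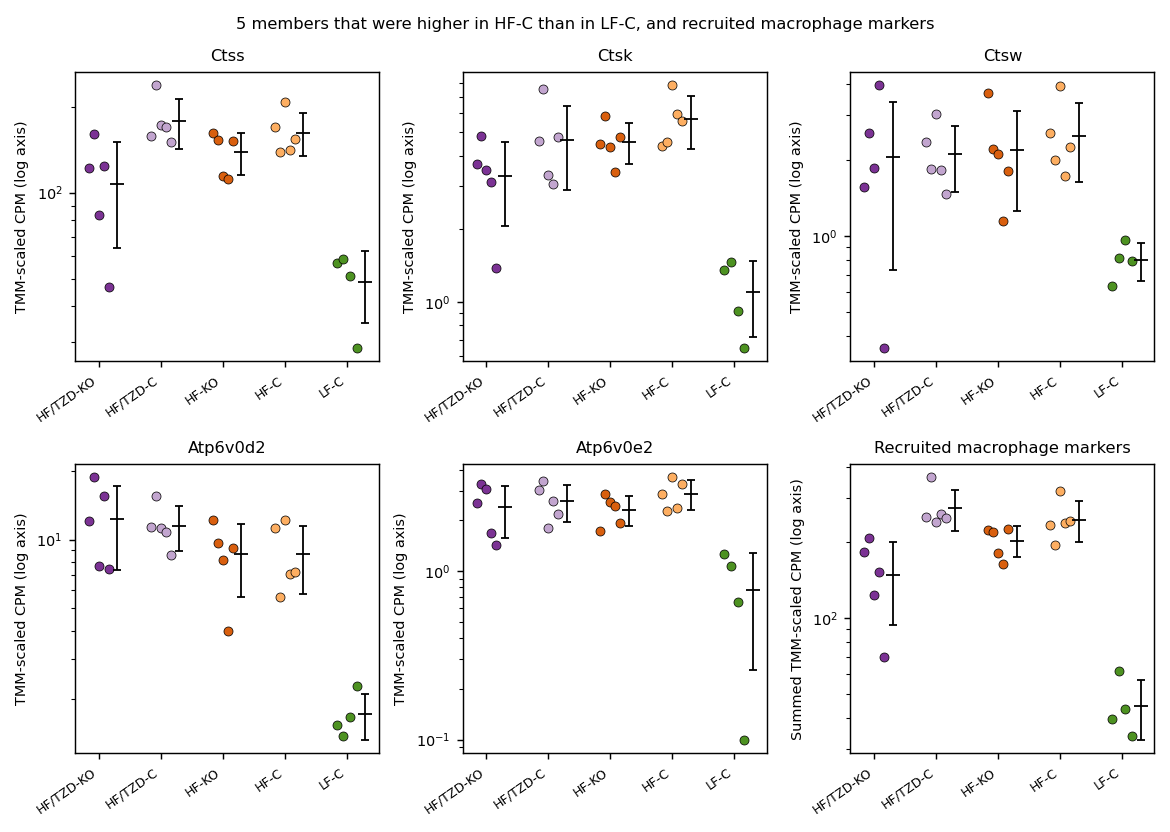
Ctss, Ctsk, Ctsw, Atp6v0d2, Atp6v0e2 and the summed recruited macrophage markers in each liver (points), with the group mean and SD beside them, on vertical log axes in TMM-scaled CPM. All HF-C livers lie above all LF-C livers in each panel, and HF/TZD-KO 5 is the lowest of its group in all 6 panels.

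Markers of non-parenchymal cells also differed between HF-C and LF-C livers. All 8 markers of recruited and lipid-associated macrophages (Trem2, Itgax, Ccr2, Cx3cr1, Lgals3, Cd9, Mmp12 and Ly6c2) were higher in HF-C livers, and they summed to between 195 and 319 CPM there, against 34.0 to 61.7 CPM in LF-C livers. All 8 cytotoxic T and NK markers were higher as well, with sums of 9.30 to 18.5 CPM in HF-C livers and 2.66 to 4.71 CPM in LF-C livers. Of the 6 Kupffer cell markers, 0 were higher and 2 lower, of the 8 stellate cell markers 7 were higher, and of the 8 hepatocyte markers 7 were lower. None of these lists held a gene at 0 in HF-C livers. The part of cell composition in the members' differences was not tested; in RNA of a whole liver, fewer cells of a type and less RNA per cell cannot be told apart.

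Ctse, an aspartic protease of endosomes best known from stomach and immune cells, lies on chromosome 1 at 131638306 to 131675505. It had 6.12, 4.15, 4.65, 4.76 and 3.95 CPM in HF-C livers, against 0.823, 2.92, 1.19 and 0.892 CPM in LF-C livers. The groups did not overlap, LF-C 2 was the nearest to HF-C, and the log2 fold change was 1.67 ± 0.34 (adjusted p = 0.00235). Without LF-C 2 it was 2.27 (adjusted p = 7.46e-05). Ctsd, the main lysosomal aspartic protease, had 644, 651, 660, 556 and 713 CPM in HF-C livers, against 497, 496, 523 and 418 CPM in LF-C livers. All HF-C livers were above all LF-C livers, with a smaller log2 fold change of 0.40 ± 0.10 (adjusted p = 0.0062). Atp6v1b2, the brain and general form of the B subunit of V1, averaged 82.8 ± 6.69 CPM in HF-C livers and 64.7 ± 4.67 CPM in LF-C livers (log2 fold change 0.34 ± 0.08, adjusted p = 0.00653).

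Lamp2, Ctsh, Ctsz and Atp6v1d were the 4 lower members. Lamp2, a Lamp protein also used in chaperone-mediated autophagy, had 630, 654, 535, 615 and 637 CPM in HF-C livers, against 731, 756, 772 and 826 CPM in LF-C livers; the groups did not overlap and the log2 fold change was -0.34 ± 0.08 (adjusted p = 0.00665). Ctsh, an aminopeptidase, had 228, 213, 206, 193 and 200 CPM in HF-C livers, against 249, 260, 267 and 307 CPM in LF-C livers, with a log2 fold change of -0.39 ± 0.08 (adjusted p = 0.00278). Under library totals Lamp2 and Ctsh no longer passed, at -0.08 (adjusted p = 0.393) and -0.125 (adjusted p = 0.2036). Ctsz, a carboxypeptidase, averaged 266 ± 14.8 CPM in HF-C livers and 309 ± 10.6 CPM in LF-C livers, and its log2 fold change of -0.23 ± 0.07 (adjusted p = 0.0298) turned to 0.04 under library totals. The call of Ctsz was lost when any 1 of HF-C 1, 2, 3, 4 or 5 or of LF-C 2 or 3 was left out (adjusted p = 0.0507 to 0.0865). Atp6v1d, a stalk subunit of V1, averaged 36.0 ± 2.81 CPM in HF-C livers and 41.9 ± 2.08 CPM in LF-C livers, and its log2 fold change of -0.23 ± 0.08 (adjusted p = 0.0333) turned to 0.04 under library totals. Leaving out any 1 of HF-C 1, 3 or 5 or of LF-C 1 or 4 ended its call (adjusted p = 0.0522 to 0.0886).

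Ctsb and Lamp1, members of high level, did not pass in this comparison. Ctsb, an abundant cysteine protease, had 1067, 906, 1035, 880.5 and 1086 CPM in HF-C livers, against 811, 912, 831 and 852 CPM in LF-C livers (log2 fold change 0.21 ± 0.09, adjusted p = 0.0872). The ranges overlapped through HF-C 2 and 4 and LF-C 2. Lamp1 had 895.5, 907, 866, 898 and 918 CPM in HF-C livers, against 838, 900, 870 and 796 CPM in LF-C livers, and these overlapped too (log2 fold change 0.06 ± 0.08, adjusted p = 0.54). Ctsb passed with DESeq2 (adjusted p = 0.0345) and in the fit of all 24 libraries (adjusted p = 0.0474). Under library totals both genes were called higher, Ctsb at 0.48 (adjusted p = 0.00274) and Lamp1 at 0.33 (adjusted p = 0.00845).

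HF-KO was compared with HF-C to assess the labelled knockout in mice on the HFCF diet. Of the 32 members, Ctse was lower and 0 were higher; over all 14844 genes tested, 0.539% were lower and 0.485% higher. The members' median log2 fold change was -0.03, and that of all genes was 0.0012. Ctse had 1.82, 2.49, 2.70, 1.84 and 1.56 CPM in HF-KO livers, against 6.12, 4.15, 4.65, 4.76 and 3.95 CPM in HF-C livers. All HF-KO livers were below all HF-C livers, and the log2 fold change was -1.18 ± 0.19 (adjusted p = 0.00945). The call held without each library in turn (adjusted p up to 0.0334). The split over all genes was 72 higher and 80 lower with TMM scaling and 56 higher and 118 lower with library totals, with Ctse the member called in both.

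Ctsl, a broad lysosomal cysteine protease, lies on chromosome 13 at 64363214 to 64370306. It had 779, 677, 690, 762 and 684 CPM in HF-KO livers, against 612, 593, 584, 597 and 632 CPM in HF-C livers. The groups did not overlap, but the log2 fold change of 0.25 ± 0.06 missed the threshold (adjusted p = 0.0804), and DESeq2 called it (adjusted p = 0.00173). Atp6v1c1, the C subunit of V1, came next by p. Its levels were 43.7, 42.4, 43.7, 40.1 and 39.5 CPM in HF-KO livers, against 45.6, 45.6, 43.5, 47.5 and 44.0 CPM in HF-C livers, with overlapping ranges (log2 fold change -0.11 ± 0.06, adjusted p = 0.503). Ctss had 161, 153, 115, 112 and 151 CPM in HF-KO livers, overlapping the HF-C values above (log2 fold change -0.23 ± 0.13, adjusted p = 0.578). Ctsk, Atp6v0d2, Ctsb, Ctsd, Lamp1 and Lamp2 ranged from 3.42 to 5.85, 3.98 to 12.2, 923.5 to 1056, 588 to 624, 834 to 894 and 635 to 682 CPM in HF-KO livers, and each overlapped HF-C.

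Rosiglitazone in control mice was assessed by comparing HF/TZD-C with HF-C. Ctse was higher and Ctsl and Ctsz were lower among the 32 members, against 2.69% of all 14937 genes tested higher and 2.61% lower. The median log2 fold change was -0.06 over the members and -0.01 over all genes. Ctse had 13.3, 12.8, 13.0, 11.7 and 13.8 CPM in HF/TZD-C livers, against 6.12, 4.15, 4.65, 4.76 and 3.95 CPM in HF-C livers. Every HF/TZD-C liver was above every HF-C liver, and the log2 fold change was 1.45 ± 0.12 (adjusted p = 2.22e-05). Ctsl had 462, 445, 486.5, 487.5 and 447.5 CPM in HF/TZD-C livers, against 612, 593, 584, 597 and 632 CPM in HF-C livers. Its groups were also separate, in the other direction, with a log2 fold change of -0.38 ± 0.06 (adjusted p = 0.00145).

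Ctsz had 234, 223, 222, 227 and 221 CPM in HF/TZD-C livers, against 277, 245, 271, 281 and 258 CPM in HF-C livers. The groups did not overlap and the log2 fold change was -0.24 ± 0.05 (adjusted p = 0.0207), but library totals gave an adjusted p of 0.071. Without any 1 of HF/TZD-C 2, 3 or 5 or of HF-C 1 or 4 the call was lost (adjusted p = 0.0561 to 0.0651). Ctsc, the dipeptidyl peptidase that activates granule proteases, was next by p. It had 156, 202, 187.5, 158 and 154 CPM in HF/TZD-C livers, against 135, 121, 148, 98.7 and 152 CPM in HF-C livers. Its ranges did not overlap, and the log2 fold change of 0.39 ± 0.11 missed the threshold (adjusted p = 0.0699) but passed without HF-C 3 (adjusted p = 0.0466) and with DESeq2 (adjusted p = 0.0206). Among the members called in HF-C against LF-C, Ctse and Ctsz thus passed here too, each in the same direction. Ctss, Ctsk, Ctsw and Atp6v0d2, also called there, did not pass. Their log2 fold changes were 0.13 ± 0.13, -0.28 ± 0.24, -0.25 ± 0.26 and 0.40 ± 0.21 (adjusted p = 0.323 to 0.66), and their ranges overlapped HF-C. The others called there, Ctsd, Atp6v0e2, Atp6v1b2, Ctsh, Lamp2 and Atp6v1d, did not pass either. Markers of hepatocytes included 3 of 8 that were lower and 0 that were higher, and of the 8 recruited macrophage markers 0 passed; the part of cell composition was not tested.

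HF/TZD-KO was compared with HF-KO to assess rosiglitazone in the mice labelled knockout. Of the 32 members, 0 passed in edgeR, against 0.426% of 14559 genes higher and 0.309% lower. At an unadjusted p below 0.05 there were 2 members, against 15.3% of all genes, and DESeq2 called 1 member, against 4.6% of all genes. The members' median log2 fold change was -0.04 and that of all genes 0.0023. The member DESeq2 called was Lamp1. It had 781, 666, 782.5, 730 and 764 CPM in HF/TZD-KO livers, against 834, 894, 859, 884 and 860 CPM in HF-KO livers. The groups did not overlap, and the log2 fold change was -0.21 ± 0.08 (edgeR adjusted p = 0.192; DESeq2 adjusted p = 0.0195). Library totals gave -0.33 for Lamp1 (adjusted p = 0.0371), with the median of all genes at -0.11 and 51 genes higher and 169 lower, against 62 and 45 with TMM scaling.

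Ctsz had 236, 225, 214, 241 and 212 CPM in HF/TZD-KO livers, against 268, 248, 226, 293 and 247 CPM in HF-KO livers, with overlapping ranges (log2 fold change -0.18 ± 0.08, adjusted p = 0.312). Atp6v0c, the proteolipid that forms the proton-carrying ring of V0, had 83.5, 78.6, 79.9, 88.7 and 81.6 CPM in HF/TZD-KO livers, against 95.1, 86.9, 82.9, 97.5 and 89.8 CPM in HF-KO livers (log2 fold change -0.13 ± 0.07, adjusted p = 0.389). Its ranges overlapped, and processed pseudogene copies of Atp6v0c in the mouse genome make its count less certain. Atp6v0d2 had 12.0, 18.8, 7.67, 15.5 and 7.46 CPM in HF/TZD-KO livers, against 12.2, 9.66, 8.11, 3.98 and 9.18 CPM in HF-KO livers (log2 fold change 0.52 ± 0.30, adjusted p = 0.446). These ranges overlapped, with HF/TZD-KO 2 highest and HF-KO 4 lowest. Ctse averaged 1.65 ± 0.74 CPM in HF/TZD-KO livers and 2.08 ± 0.49 CPM in HF-KO livers (SD, n = 5 each), and did not pass.

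HF/TZD-KO was also compared with HF/TZD-C, to assess the labelled knockout under rosiglitazone. Ctsl, Ctsh, Atp6v1g1 and Lamp2 were higher and Ctse, Ctsc and Ctso lower among the 32 members; 8.53% of all 14602 genes tested were higher and 7.81% lower. The median log2 fold change was -0.03 over the members and 0.0018 over all genes. With library totals the median of all genes was -0.16 and that of the members -0.19; Ctsl was then the 1 member higher and 12 were lower, and 740 genes were higher and 2916 lower, against 1246 and 1141 with TMM scaling. Without HF/TZD-KO 5, 2 members were higher (Ctsl and Ctsh) and 6 lower (Ctse, Ctsc, Ctso, Ctss, Lamp1 and Atp6v0a2). Over all genes, leaving out each library in turn gave 863 to 1409 higher and 706 to 1286 lower.

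Ctse had 2.20, 2.65, 0.986, 1.00 and 1.43 CPM in HF/TZD-KO livers, against 13.3, 12.8, 13.0, 11.7 and 13.8 CPM in HF/TZD-C livers. Both groups were far apart, and the log2 fold change was -2.94 ± 0.24 (adjusted p = 6.9e-06; without HF/TZD-KO 5, -2.90 with adjusted p = 5.09e-06). Ctsl had 658.5, 707.5, 652, 746 and 711 CPM in HF/TZD-KO livers, against 462, 445, 486.5, 487.5 and 447.5 CPM in HF/TZD-C livers. Its groups were separate, and the log2 fold change was 0.58 ± 0.07 (adjusted p = 0.000136; without HF/TZD-KO 5, 0.56 with adjusted p = 0.000118). Ctsc had 124, 115, 91.8, 140 and 104 CPM in HF/TZD-KO livers, against 156, 202, 187.5, 158 and 154 CPM in HF/TZD-C livers. The groups did not overlap and the log2 fold change was -0.58 ± 0.12 (adjusted p = 0.00485).

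**Figure D4:**
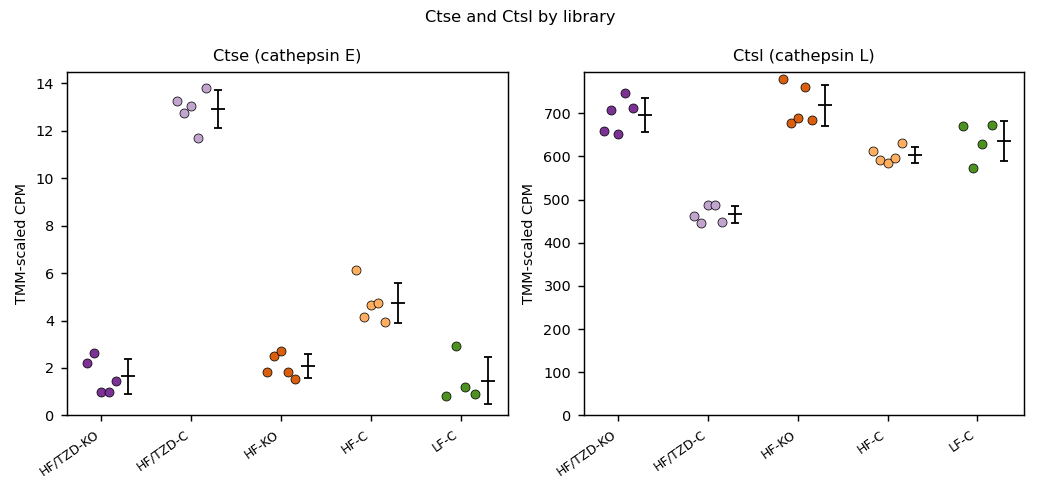
Ctse (left) and Ctsl (right) in each liver (points) with the group mean and SD beside them, in TMM-scaled CPM on linear axes from 0. HF/TZD-C livers are the highest for Ctse, at 11.7 to 13.8 CPM, and the lowest for Ctsl, at 445 to 487.5 CPM.

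Ctsh had 202, 231, 207, 224 and 259 CPM in HF/TZD-KO livers, against 183, 187, 186, 192 and 172 CPM in HF/TZD-C livers. These did not overlap, and the log2 fold change was 0.29 ± 0.08 (adjusted p = 0.0216). Without HF/TZD-KO 5, the highest liver, it was 0.22 (adjusted p = 0.0348). The call ended without HF/TZD-C 5 (adjusted p = 0.0628) and under library totals (0.12, adjusted p = 0.1855). Ctso, a little-studied cysteine cathepsin, had 74.3, 64.0, 73.0, 75.3 and 79.8 CPM in HF/TZD-KO livers, against 86.4, 86.3, 92.2, 94.6 and 79.3 CPM in HF/TZD-C livers. The ranges met at HF/TZD-KO 5 and HF/TZD-C 5, the log2 fold change was -0.26 ± 0.07 (adjusted p = 0.0262), and leaving out any 1 of HF/TZD-C 2, 3 or 4 ended the call (adjusted p = 0.0531 to 0.0671). Lamp2 had 674, 609, 725, 683 and 798 CPM in HF/TZD-KO livers, against 545, 559, 618, 623 and 547 CPM in HF/TZD-C livers, with overlap at HF/TZD-KO 2. Its log2 fold change was 0.27 ± 0.09 (adjusted p = 0.0477), and the call ended without any 1 library except HF/TZD-KO 2 (adjusted p = 0.0571 to 0.116) and under library totals (0.10, adjusted p = 0.201). Atp6v1g1, a stalk subunit of V1, averaged 52.2 ± 5.44 CPM in HF/TZD-KO livers and 43.1 ± 2.86 CPM in HF/TZD-C livers (log2 fold change 0.27 ± 0.08, adjusted p = 0.0375). Its call ended without any 1 library except HF/TZD-KO 1 and HF/TZD-C 1 (adjusted p = 0.0547 to 0.0989) and under library totals (0.11, adjusted p = 0.411).

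Ctss had 122, 160, 83.7, 124 and 46.6 CPM in HF/TZD-KO livers, against 157, 238, 172, 170 and 150 CPM in HF/TZD-C livers. The ranges overlapped through HF/TZD-KO 2, with HF/TZD-KO 5 lowest, and the log2 fold change of -0.73 ± 0.26 did not pass (adjusted p = 0.0719). Without HF/TZD-KO 5 it was -0.55 and passed (adjusted p = 0.0439). Ctss also passed with DESeq2 (adjusted p = 0.0236), in the fit of all 24 libraries (0.0269), under library totals (0.045) and with the replicate block (-0.82, adjusted p = 0.0176). Ctsk had 3.71, 4.85, 3.51, 3.11 and 1.38 CPM in HF/TZD-KO livers, against 4.61, 7.53, 3.33, 3.06 and 4.80 CPM in HF/TZD-C livers, and Atp6v0d2 ranged from 7.46 to 18.8 CPM in HF/TZD-KO livers and from 8.53 to 15.5 CPM in HF/TZD-C livers. Both overlapped and neither passed. Ctsb ranged from 806 to 1042 CPM in HF/TZD-KO livers and from 912 to 1145 CPM in HF/TZD-C livers, Ctsd from 459 to 709.5 CPM in HF/TZD-KO livers and from 662 to 798 CPM in HF/TZD-C livers, and Lamp1 from 666 to 782.5 CPM in HF/TZD-KO livers and from 828 to 921 CPM in HF/TZD-C livers. Of these, Lamp1 had groups that did not overlap (log2 fold change -0.22 ± 0.07, adjusted p = 0.0628; without HF/TZD-KO 5, -0.24 with adjusted p = 0.0438), and Lamp1 also passed with DESeq2 (adjusted p = 0.00603).

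Marker lists differed between these groups as well, while 4 members were higher and 3 lower. All 8 hepatocyte markers were higher in HF/TZD-KO livers, with sums of 74690 to 107700 CPM there and 37650 to 47890 CPM in HF/TZD-C livers. Of the 8 recruited macrophage markers 4 were lower and 0 higher, with sums of 69.9 to 208 CPM in HF/TZD-KO livers, lowest in HF/TZD-KO 5, and 240 to 364 CPM in HF/TZD-C livers. Of 5 tested neutrophil markers 3 were higher and 2 lower, and of 6 Kupffer cell markers 0 passed. Of 8 stellate cell markers 3 were lower. Ctss, Ctsk, Ctsw, Atp6v0d2 and Atp6v0e2, which were higher in HF-C than in LF-C, did not pass here. Their log2 fold changes were -0.73, -0.49, -0.03, 0.10 and -0.12. Ctse, also higher in HF-C than in LF-C, passed here as lower, at -2.94. Ctsh and Lamp2, lower in HF-C than in LF-C, passed here as higher, at 0.29 and 0.27. Ctsd, Atp6v1b2, Ctsz and Atp6v1d, also called in HF-C against LF-C, did not pass here. The part of any cell type in the members' differences was not tested.

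The difference between the drug's effects, that in mice labelled knockout minus that in control mice, was tested as an interaction over the 20 HFCF libraries. Ctse had an interaction of -1.75 ± 0.30 on the log2 scale (adjusted p = 0.00321), beside pairwise log2 fold changes of -0.31 with the drug in mice labelled knockout and 1.45 in control mice. Ctsl had an interaction of 0.33 ± 0.09 (adjusted p = 0.0435), beside -0.04 in mice labelled knockout and -0.38 in control mice. Over all 15365 genes tested, 1.56% were higher and 0.892% lower in this contrast, with a median of 0.01, against 0.03 over the members. The Ctse call held without each library in turn (adjusted p up to 0.0096). The Ctsl call was lost for 14 of the 20 libraries left out: HF/TZD-KO 2, 4 and 5, HF/TZD-C 1, 2, 3 and 5, HF-KO 2, 3 and 5, and HF-C 1, 2, 4 and 5 (interaction 0.30 to 0.35, adjusted p = 0.0509 to 0.0974). Library totals gave the Ctsl interaction as 0.205 (adjusted p = 0.181), with 163 genes higher and 387 lower, against 239 and 137 with TMM scaling. Ctso and Ctsc came next and did not pass, at -0.24 ± 0.09 (adjusted p = 0.173) and -0.49 ± 0.19 (adjusted p = 0.193).

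Over the 5 groups, Ctse was highest in HF/TZD-C livers at 12.9 ± 0.78 CPM, followed by 4.73 ± 0.85 in HF-C, 2.08 ± 0.49 in HF-KO, 1.65 ± 0.74 in HF/TZD-KO and 1.46 ± 0.99 in LF-C livers (SD, n = 5, 5, 5, 5 and 4), and the last 3 groups overlapped. The sum of the 4 measured adipocyte markers was also highest in HF/TZD-C livers, at 102 to 205 CPM. It was 2.93 to 20.8 CPM in HF-C, 0.409 to 6.51 in HF/TZD-KO, 0.0368 to 0.446 in HF-KO and at most 0.436 in LF-C livers. The HF-C and HF/TZD-KO ranges of this sum overlapped, and the single markers did not all follow its order. In HF-C against LF-C, HF-KO against HF-C and HF/TZD-C against HF-C, 1 of these markers was tested: Cfd, complement factor D. Cfd passed as higher in HF-C than in LF-C, in HF/TZD-C than in HF-C and in HF/TZD-KO than in HF-KO. It was lower in both comparisons of KO with C. Adipoq, the adiponectin gene, had no read in HF/TZD-KO, HF-KO or HF-C livers but had reads in HF/TZD-C and LF-C livers. The marker Plin1 had none in HF-KO or LF-C livers. The part of adipocyte RNA in the level of Ctse was not tested.

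**Figure D5:**
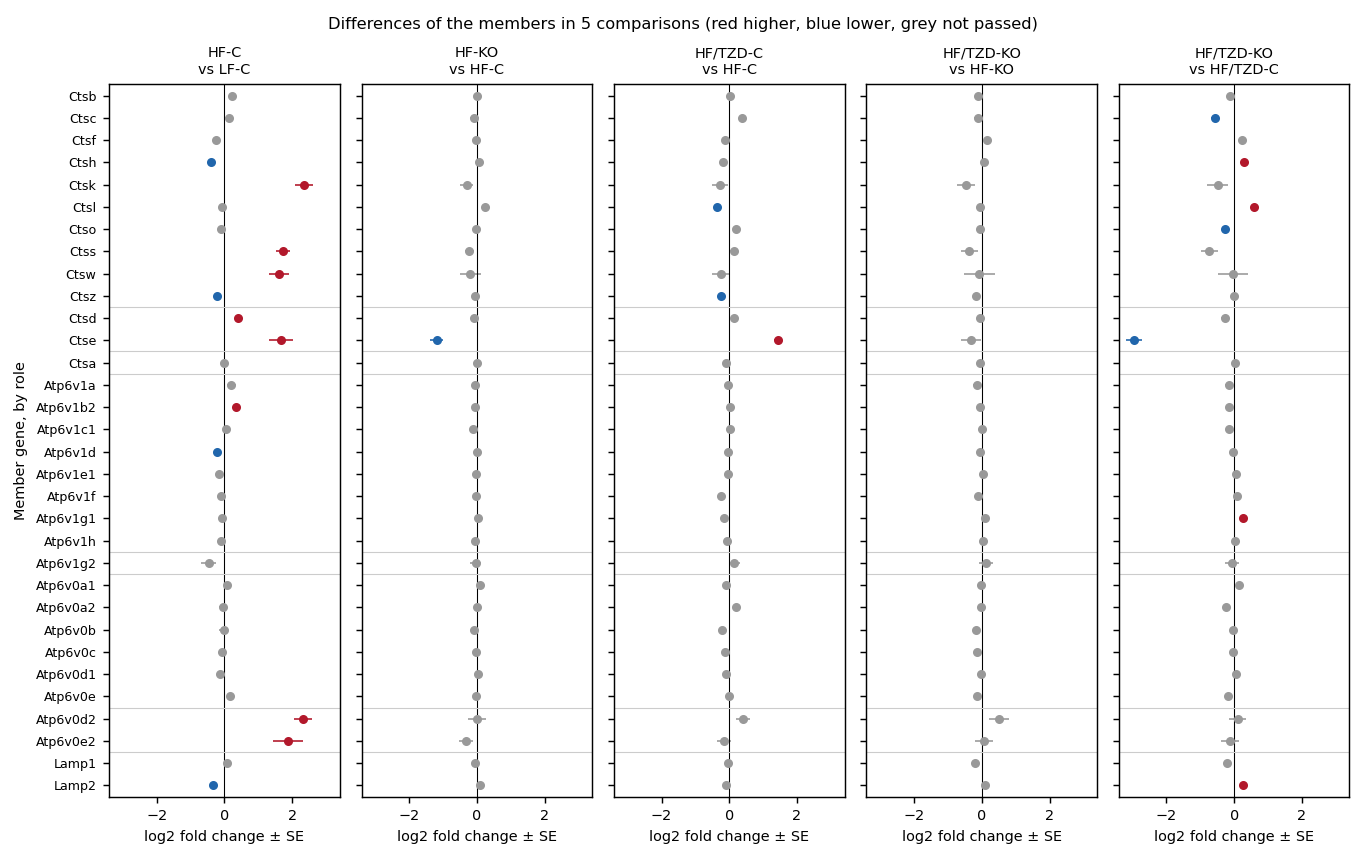
Log2 fold change ± SE of the 32 tested members (rows, grouped by role) in the 5 comparisons (panels, first group over second), with TMM scaling; red points passed as higher, blue as lower and grey did not pass. Ctse spans -2.94 to 1.67, and the points of the widely expressed pump subunits stay between -0.24 and 0.34; the lower calls of Ctsz and Atp6v1d in HF-C against LF-C turn to 0.04 under library totals.

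Counts by role are given beside the shares of all genes, and differences between roles were not tested. Of 13 tested cathepsins, 5 were higher and 2 lower in HF-C against LF-C (all genes 21.4% and 19.2%), and 2 higher and 3 lower in HF/TZD-KO against HF/TZD-C (all genes 8.53% and 7.81%). Of the 14 widely expressed pump subunits, 1 was higher and 1 lower in HF-C against LF-C, 1 was higher in HF/TZD-KO against HF/TZD-C, and 0 passed in the other comparisons. Under library totals, Atp6v0a1, Atp6v0c, Atp6v0e, Atp6v1a, Atp6v1b2 and Atp6v1c1 were higher in HF-C against LF-C (all genes 5309 higher and 886 lower). In HF/TZD-KO against HF/TZD-C, Atp6v0a2, Atp6v0c, Atp6v0e, Atp6v1a, Atp6v1b2 and Atp6v1c1 were then lower (all genes 740 higher and 2916 lower). The 3 tested tissue-restricted subunits were Atp6v0d2, Atp6v0e2 and Atp6v1g2; the first 2 were higher in HF-C than in LF-C. Atp6v1g2, known from neurons, had a log2 fold change of -0.46 ± 0.22 there and did not pass (adjusted p = 0.111). Its span overlaps Nfkbil1 on the other strand over 2133 bases, and reads of a non-stranded library within the overlap cannot be assigned between them. The same holds for Ctsb with Fdft1, Ctsa with Pltp and Neurl2, Atp6v1b2 with Slc18a1, Ctsz with Nelfcd and Ctsc with Gm26522. These overlaps of gene spans run from 10 bases for Ctsz to 4743 for Ctsc. On the same strand, the spans of Ctsd and Ifitm10, Ctss and Hmgb1-ps5, and Atp6v1b2 and Gm15717 overlap.

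The other 6 members did not pass the filter on low counts. Ctsg, a serine protease of neutrophil granules, had 5 reads in HF/TZD-KO, 2 in HF/TZD-C, 13 in HF-KO, 15 in HF-C and 0 in LF-C livers, and 12 of the 13 reads in HF-KO and 11 of the 15 in HF-C came from 1 liver each. Ctsj, known from mouse placenta, had 20 reads in HF/TZD-KO, 36 in HF/TZD-C, 21 in HF-KO, 25 in HF-C and 0 in LF-C livers; 3 reads over the LF-C group would be 0.0306 CPM, for counting error only. Ctsj was called higher in HF-C than in LF-C without the filter (adjusted p = 0.0175) and in the fit of all 24 libraries (adjusted p = 0.0202). Both calls rest on 2 to 12 reads per HF-C liver, and 12 of the 25 HF-C reads came from HF-C 5. Single livers also held 12 of the 21 reads in HF-KO and 10 of the 20 in HF/TZD-KO. Atp6v0a4, Atp6v1b1 and Atp6v1c2, subunit forms best known from kidney, and Lamp3 had at most 15 reads in any group.

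Lists of other lysosomal genes were examined beside the members: 95 genes in 7 lists, of which 86 or 87 were tested. In HF-C against LF-C, 28 of 86 were higher and 12 lower, against 21.4% and 19.2% of all genes. By list, 2 of 2 tested cathepsin inhibitors were higher (Cstb, 0.75 ± 0.09, adjusted p = 5.43e-05; Cst3, 0.25 ± 0.08, adjusted p = 0.035); the call of Cst3 ended without any 1 of HF-C 1, 3 or 4 or of LF-C 1, 2 or 3 (adjusted p up to 0.0976). Of 6 tested other lysosomal proteases, 3 were higher, including Prcp at 0.92 ± 0.16 (adjusted p = 0.000752) and Lgmn, which processes several cathepsins, at 1.03 ± 0.18 (adjusted p = 0.000854), and 1 was lower. Among 23 glycosidases, sulfatases and nucleases, 8 were higher and 4 lower, with Galns at 0.73 ± 0.13 (adjusted p = 0.00121). Lipases and lipid-handling proteins had 5 higher and 3 lower of 15, with Gm2a at -0.78 ± 0.08 (adjusted p = 2.4e-05) and Pld3 at 0.75 ± 0.10 (adjusted p = 0.000158). Membrane proteins other than Lamp had 6 higher and 4 lower of 21; Gpnmb, at 4.74 ± 0.39 (adjusted p = 7.29e-06), and Cd63, at 2.81 ± 0.37 (adjusted p = 0.000138), had the smallest adjusted p and were at 5.53 and 3.41 without LF-C 2. Several of the higher genes, such as Gpnmb, Laptm5 (1.45 ± 0.19, adjusted p = 0.000145) and Cd68 (1.13 ± 0.22, adjusted p = 0.00151), are also known from macrophages. Of 8 tested pump partners not named Atp6v, Ncoa7 was higher (1.18 ± 0.21, adjusted p = 0.00105). The TFEB family and sorting list had 3 higher of 11, with Sort1 at 1.88 ± 0.29 (adjusted p = 0.000388) and Tfe3 at 0.23 ± 0.07 (adjusted p = 0.0235). The call of Tfe3 ended without the filter (adjusted p = 0.0549) and with the replicate block (adjusted p = 0.0974).

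In the other comparisons few of these genes passed, apart from HF/TZD-KO against HF/TZD-C. In HF-KO against HF-C, 1 of 87 was higher, Gm2a, a ganglioside activator (0.34 ± 0.06, adjusted p = 0.0126; without HF-C 4, adjusted p = 0.0517). In HF/TZD-C against HF-C, 2 of 87 were lower: Cstb, an inhibitor of cysteine cathepsins (-0.31 ± 0.06, adjusted p = 0.00668), and Slc36a1, an amino acid transporter (-0.32 ± 0.07, adjusted p = 0.0118). The call of Cstb ended in the fit of all 24 libraries (adjusted p = 0.0804) and that of Slc36a1 with the replicate block (adjusted p = 0.0524). Cstb was also the 1 gene of 86 that was lower in HF/TZD-KO against HF-KO (-0.60 ± 0.11, adjusted p = 0.0373), a call that ended without any 1 of HF/TZD-KO 2, 3 or 4 or of HF-KO 2, 3, 4 or 5 (adjusted p = 0.0685 to 0.119). In HF/TZD-KO against HF/TZD-C, 7 of 87 were higher and 11 lower, against 8.53% and 7.81% of all genes. The enzymes Arsb (-0.55 ± 0.08, adjusted p = 0.000739) and Arsa (-0.53 ± 0.09, adjusted p = 0.00108) were lower, as were Psap (-0.60 ± 0.115, adjusted p = 0.00359), Laptm4b (-0.39 ± 0.08, adjusted p = 0.00364), Prcp (-0.64 ± 0.17, adjusted p = 0.0243) and Sort1 (-0.79 ± 0.24, adjusted p = 0.0394). Higher genes included Gm2a (0.61 ± 0.08, adjusted p = 0.000297), Slc36a1 (0.48 ± 0.09, adjusted p = 0.00272) and Scpep1 (0.33 ± 0.09, adjusted p = 0.0289). The calls of 3 of these genes ended without some of the libraries: Prcp without HF/TZD-KO 3 or HF/TZD-C 2 (adjusted p up to 0.0664), Scpep1 without HF/TZD-KO 3 or HF/TZD-C 2, 4 or 5 (up to 0.0722), and Sort1 without HF/TZD-KO 4 or HF/TZD-C 1, 2, 4 or 5 (up to 0.0988). Scpep1 also did not pass under library totals (0.17, adjusted p = 0.269).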

How the data were processed

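RNA of 24 whole mouse livers was sequenced, and the authors deposited 5 tables of read counts per gene with gene lengths; a library that stood in several tables had the same count in each. Per the submitters' processing notes, STAR 2.6.1 and HTSeq 0.6.1 were used with GRCm38; their settings are not given in the sources used here, and the libraries were not strand-specific per the labels' protocols. Tables were joined by gene identifier. Each comparison was fitted on its own groups with edgeR 4.0.16 in R 4.3.3 (quasi-likelihood test, TMM scaling, a filter at a minimum count of 10 and a total of 15, Benjamini-Hochberg threshold 0.05), and the difference of the drug's effects over the 20 HFCF libraries. The fit was tested on simulated data. DESeq2 1.42.0, other scalings, no filter, all libraries together, a replicate block and each library left out were alternatives. Replicate numbers did not pair the libraries. Floors cover counting error only. The text names every member that passed or, below 3, the 3 with the smallest p; levels per library are given for 10 fixed members and the 4 with the smallest p. Of each list of other lysosomal genes, the 2 called genes with the smallest adjusted p are named; further ones were named after their values were seen. A gene that this rule selects is not reported here. The members and lists were chosen with earlier results of these data known. P-values measure the spread between these mice.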

Additional observations from a re-analysis of the deposited data

Results flagged for a closer look

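Single libraries far from the rest of their group were looked for in 22 members over 110 groups, and 2 were found; chance flags about 1 in 20 groups. Ctss had 238.1 CPM in HF/TZD-C 2, against 150.4 to 172.4 CPM in the other HF/TZD-C livers. Atp6v0c had 107.8 CPM in LF-C 4, against 91.11 to 93.71 CPM in the other LF-C livers.

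By edgeR's interaction test, the effect of rosiglitazone passed as different between mice labelled knockout and control mice for 2 of 32 members. Over all 15365 genes tested, 1.56% were higher and 0.892% lower. The difference, labelled knockout minus control, was -1.75 for Ctse (adjusted p = 0.00321) and 0.33 for Ctsl (adjusted p = 0.0435) on the log2 scale. The Ctsl call was lost for 14 of the 20 libraries left out. It was also lost under library totals, without the filter, with all libraries and with the replicate block.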

How the results depend on the processing

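Counts of calls are given as higher, then lower. For HF-C against LF-C, members numbered 16 and 0 under library totals (all genes 5309 and 886). Lower members were 2 without a filter (all genes 2556) and 2 with a replicate block (all genes 1895). Ctsz and Atp6v1d turned to 0.042 and 0.036 under library totals. With 1 library left out, 2 to 4 members were lower (all genes 2246 to 2946). For HF-KO against HF-C, DESeq2 called 1 member higher and 204 and 183 genes, the fit of all 24 libraries 30 genes higher, and leaving 1 out gave 20 to 104 and 41 to 98 genes. For HF/TZD-C against HF-C, 3 members were higher with DESeq2 and 1 was lower under library totals and 1 with the block. All genes were 613 and 644 with DESeq2 and 436 and 377 under library totals. They were 198 and 189 with all libraries and 220 and 166 with the block. Leaving 1 out gave 1 to 2 and 1 to 3 members, and 280 to 435 and 217 to 495 genes. For HF/TZD-KO against HF-KO, 1 member was lower under library totals, with DESeq2 and with all libraries; genes were 96 and 105 without a filter, 337 and 333 with DESeq2, 207 and 233 with all libraries, 0 and 0 with the block, 169 lower under library totals, and 0 to 125 and 0 to 98 with 1 left out. For HF/TZD-KO against HF/TZD-C, members were 1 and 12 under library totals (genes 740 and 2916). Higher members were 2 without a filter (all genes 1135) and 1 with the block (all genes 1013). Lower members were 6 with DESeq2 (all genes 1543) and 6 with all libraries (all genes 1452). Leaving 1 out gave 1 to 3 and 2 to 6 members, and 863 to 1409 and 706 to 1286 genes. For the difference of the drug's effects, 0 members were higher under library totals, no filter, all libraries and the block, and 3 lower under library totals. Genes were 430 and 315 with DESeq2, 124 and 78 with all libraries and 163 and 387 under library totals. Higher genes were 202 without a filter and 139 with the block. Leaving 1 out gave 0 to 1 members and 111 to 288 genes higher and 80 to 179 genes lower. The causes were not tested. Replicate numbers did not pair the libraries (correlations -0.326 to 0.31, every pair over 0.1 in no comparison). The replicate block ended 13 calls: Ctsz, Atp6v1d, Tfe3 and Cst3 in HF-C against LF-C, Ctsz and Slc36a1 in HF/TZD-C against HF-C, Cstb in HF/TZD-KO against HF-KO, Ctsh, Ctso, Atp6v1g1, Lamp2 and Scpep1 in HF/TZD-KO against HF/TZD-C, and Ctsl in the difference. Ctss began to pass in HF/TZD-KO against HF/TZD-C with it. RLE scaling kept the call and direction of 67 of 67 named values.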
